A study of Homo sapiens with 4 samples.

Results

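Nuclear-encoded subunits of the respiratory chain and of ATP synthase were followed in Hs683 cells, a human glioma cell line. The cells were transduced with miR-20a or with miR-NT, a scrambled non-targeting microRNA. Members were the genes whose current symbols place them in complex I (NDUFA, NDUFB, NDUFC, NDUFS and NDUFV), complex II (SDHA to SDHD), complex III (UQCR), complex IV (COX4 to COX8) or ATP synthase (ATP5F, ATP5M and ATP5P). The symbols alone decide membership, though the gene group was picked for study with earlier results of these data known. Of 17716 genes with a probe set of their own, 73 were members: 32 of complex I, 3 of complex II, 6 of complex III, 15 of complex IV and 17 of ATP synthase. Each transcript is read by several short oligonucleotides whose signals are combined into a probe set, and a gene with several probe sets was represented by its brightest, by mean over the 4 arrays.

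Cells with miR-20a were measured on 2 arrays and set against cells with miR-NT, also on 2 arrays. Cells of both groups carried a knockdown of QK, the gene now named QKI, so that every array reports on cells with the knockdown and none on unmanipulated Hs683 cells. RNA was the total RNA of whole cultures, 6 ug per array, and the labels do not say whether replicates were separate cultures or whether the knockdown line was a single clone. P-values set the group difference against the spread of these arrays within groups, combined with that of all tested genes. That spread may be technical, so the p-values may not extend to new cultures. RefSeq holds 85 protein-coding genes that match the symbols. Besides the 73 members, 6 of them were read only by probe sets that several genes share (NDUFC2, NDUFS5, NDUFS8, UQCRH, UQCRHL and the read-through gene ATP5MF-PTCD1), and 6 were not analysed here.

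The respiratory chain sits in the inner mitochondrial membrane. Complex I takes electrons from NADH and complex II from succinate, both pass them to ubiquinone, complex III carries them on to cytochrome c, and complex IV hands them to oxygen. Complexes I, III and IV pump protons as they work, and ATP synthase lets the protons return through a rotating ring of c subunits and makes ATP. Some core subunits are encoded in mitochondrial DNA, while all members described here are nuclear genes whose products are imported. Glioma cells are known to use glycolysis heavily, and they keep a respiratory chain. MicroRNAs such as miR-20a pair through their seed, bases 2 to 8, with messenger RNAs and lower their translation and stability. The mature 5p strand of miR-20a is shown from RefSeq (GRCh38.p14, chr13:91351072-91351094, plus strand) with its seed in capitals, because it is the agent that sets the groups apart. The labels do not name the arm.
hsa-miR-20a-5p: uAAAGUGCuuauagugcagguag

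Promoters of the members shared letters that are known as binding motifs of regulators of respiratory genes. RefSeq windows of 300 bases, from 250 before the start of transcription to 50 after it, were found for 62 of the 73 members. The NRF1 motif was searched as its palindromic core with any base at 1 inner position, the ETS motif that GABP binds as CCGGAAG, and the YY1 motif as the exact letters in capitals near the end of the UQCRC1 window below. Each was searched on both strands, and no matches overlap in the windows shown. At least 1 NRF1 match lay in 25.8% of these members (16 of 62), against 6.98% of the 27305 genes in the table. For the ETS motif the shares were 30.6% of members and 12.2% of all genes, and for YY1 4.84% and 1.04%. A gene with several windows was counted once, and a match is a description of letters, not a site in use. Below are 4 promoters, all 5′ to 3′ on the strand of the gene, with matches in capitals: that of ATP5ME, the tested member with the smallest p among those higher with miR-20a, that of UQCRC2, the member furthest below miR-NT, that of its partner UQCRC1, and that of SDHD. They lie at chr4:674227-674526 (minus strand), chr16:21953111-21953410 (plus), chr3:48609597-48609896 (minus) and chr11:112086623-112086922 (plus) of GRCh38.p14.
ATP5ME: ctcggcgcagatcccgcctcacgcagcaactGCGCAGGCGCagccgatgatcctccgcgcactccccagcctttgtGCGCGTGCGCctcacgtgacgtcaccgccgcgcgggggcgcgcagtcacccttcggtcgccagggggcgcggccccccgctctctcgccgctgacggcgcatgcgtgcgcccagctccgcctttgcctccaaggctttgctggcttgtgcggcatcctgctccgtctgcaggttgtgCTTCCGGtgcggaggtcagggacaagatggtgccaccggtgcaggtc
UQCRC2: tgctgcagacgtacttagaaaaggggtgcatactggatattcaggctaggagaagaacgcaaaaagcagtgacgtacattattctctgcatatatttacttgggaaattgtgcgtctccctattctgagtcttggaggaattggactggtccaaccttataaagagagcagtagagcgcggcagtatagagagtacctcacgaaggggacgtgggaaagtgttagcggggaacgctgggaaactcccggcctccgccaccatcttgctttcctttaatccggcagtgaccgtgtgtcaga
UQCRC1: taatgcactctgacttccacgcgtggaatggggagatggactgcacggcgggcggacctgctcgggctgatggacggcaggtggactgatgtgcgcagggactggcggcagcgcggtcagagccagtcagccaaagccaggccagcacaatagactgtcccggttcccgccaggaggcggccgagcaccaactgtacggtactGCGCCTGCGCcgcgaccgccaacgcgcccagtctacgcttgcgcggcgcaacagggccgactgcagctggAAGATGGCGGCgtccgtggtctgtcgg
SDHD: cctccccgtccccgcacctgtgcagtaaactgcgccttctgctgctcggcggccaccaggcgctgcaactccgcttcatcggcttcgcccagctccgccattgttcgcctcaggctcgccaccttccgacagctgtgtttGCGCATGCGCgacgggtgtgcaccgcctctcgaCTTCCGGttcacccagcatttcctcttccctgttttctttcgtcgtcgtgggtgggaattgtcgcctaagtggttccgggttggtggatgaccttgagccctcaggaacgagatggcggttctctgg
ATP5ME holds 2 NRF1 matches and 1 ETS match, UQCRC1 an NRF1 and a YY1 match, SDHD an NRF1 and an ETS match, and UQCRC2 no match to these letters. Members with and without an NRF1 match had the same median log2 fold change to 2 digits, −0.083 over 16 and −0.083 over 46. For the ETS motif the medians were −0.029 with a match (19) and −0.092 without (43), and for YY1 −0.16 with (3) and −0.074 without (59), all given as a description.

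Signals of the labelled cell type and quality controls were read first. Of 12 glioma and glial markers 7 passed the filter on dim genes, among them VIM at 14.19 and 14.02 on the log2 scale with miR-20a and 14.32 and 14.27 with miR-NT, while GFAP, NES, OLIG1, OLIG2 and S100B did not pass it. The epithelial markers EPCAM and CDH1, the immune marker PTPRC and the endothelial marker CDH5 were dim as well, while 1 of 3 immune (CD3E), 1 of 3 endothelial (PECAM1), 2 of 4 epithelial and 2 of 2 neuronal markers passed, and the keratin KRT18 was at 12.73 and 12.54 with miR-20a and 12.72 and 12.60 with miR-NT. QKI measured 7.52 and 7.08 with miR-20a, against 8.14 and 7.92 with miR-NT (limma adjusted p = 0.106). The control probe set at the 5' end of ACTB, a sign of RNA or labelling quality, measured 11.59 and 10.43 with miR-20a, against 12.78 and 12.66 with miR-NT. That of GAPDH measured 13.17 and 12.30 with miR-20a and 13.89 and 13.81 with miR-NT. Both were lowest on miR-20a replicate 2, and their part in the results below was not tested beyond a fit with the ACTB signal as a covariate. That signal was lower on both miR-20a arrays, so the covariate and the groups can hardly be told apart. The slope of that fit rests mainly on the gap between the 2 miR-20a arrays. No member passed in it (smallest limma adjusted p = 0.476), and its signs do not settle a direction.

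The comparison asks which of these genes differ between miR-20a and miR-NT on the background of the QK knockdown. None of the 66 members that were bright enough to be tested passed limma's test over all 12401 genes, at a threshold of 0.05 on the Benjamini-Hochberg adjusted p (0% of all tested genes passed as higher and 0.00806% as lower). The smallest adjusted p of a member was 0.157, for UQCRC2, and the largest 0.988, for COX6B1. At an unadjusted p under 0.05, 2 members were higher and 4 lower with miR-20a, or 6 of 66, where 5.82% of all tested genes were higher and 13.2% lower. Log2 fold changes (miR-20a minus miR-NT) of the 73 members ran between −0.60 and 0.31, and 65 of them were smaller than 0.25 in size. Read by its brightest probe set, no member differed by 2-fold or more, which 0% of all 17716 genes reached as higher and 0.378% as lower. A dimmer probe set of SDHC, described below, was lower by more than that, at −1.06. In this bulk RNA a lower level per cell and fewer cells with the transcript cannot be told apart.

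Most members leaned slightly to the lower side in the deposited values, but not after quantile normalization. Median centring moves every log2 fold change by the same small amount, so it could hardly change that lean and is no check on it. Log2 fold changes were negative in 46 of the 73 members and positive in 27, where 49.5% of all genes were negative and 50.5% positive. The split was 45 below and 28 above after median centring, and 33 below and 40 above after quantile normalization. As deposited, the median was −0.064 over the members and 0.003 over all genes. After quantile normalization it was 0.020 over the members and 0.023 over all genes. Among tested genes only, the deposited medians were −0.083 over the 66 members and −0.023 over all 12401 genes. With the dimmest 50% of genes left out, the median over the 8858 genes kept was −0.044. The median over genes in general was thus lower without the dim ones. How far the lean of the members goes with their signal level was not tested. The groups did not overlap in 45 members, 27 with miR-20a as the lower and 18 with miR-20a as the higher, and overlapped in 28, where 27.2% of all genes lay apart as lower and 26.7% as higher. After quantile normalization 19 members lay apart as lower and 31 as higher, with shares over all genes of 25.7% and 30.9%. By complex, the deposited medians were −0.083 for complex I, −0.15 for complex II, −0.15 for complex III, −0.015 for complex IV and −0.10 for ATP synthase, and after quantile normalization they were 0.022, −0.046, −0.049, 0.054 and 0.035 in that order. After median centring, with its same small shift for every gene, the 5 medians were −0.079, −0.14, −0.14, −0.011 and −0.099. In the fit on the ACTB 5' control all 5 were above 0, at 0.075, 0.18, 0.17, 0.011 and 0.089 in that order. That fit can hardly part the control from the groups, as the control signal was lower on both miR-20a arrays.

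**Figure D1:**
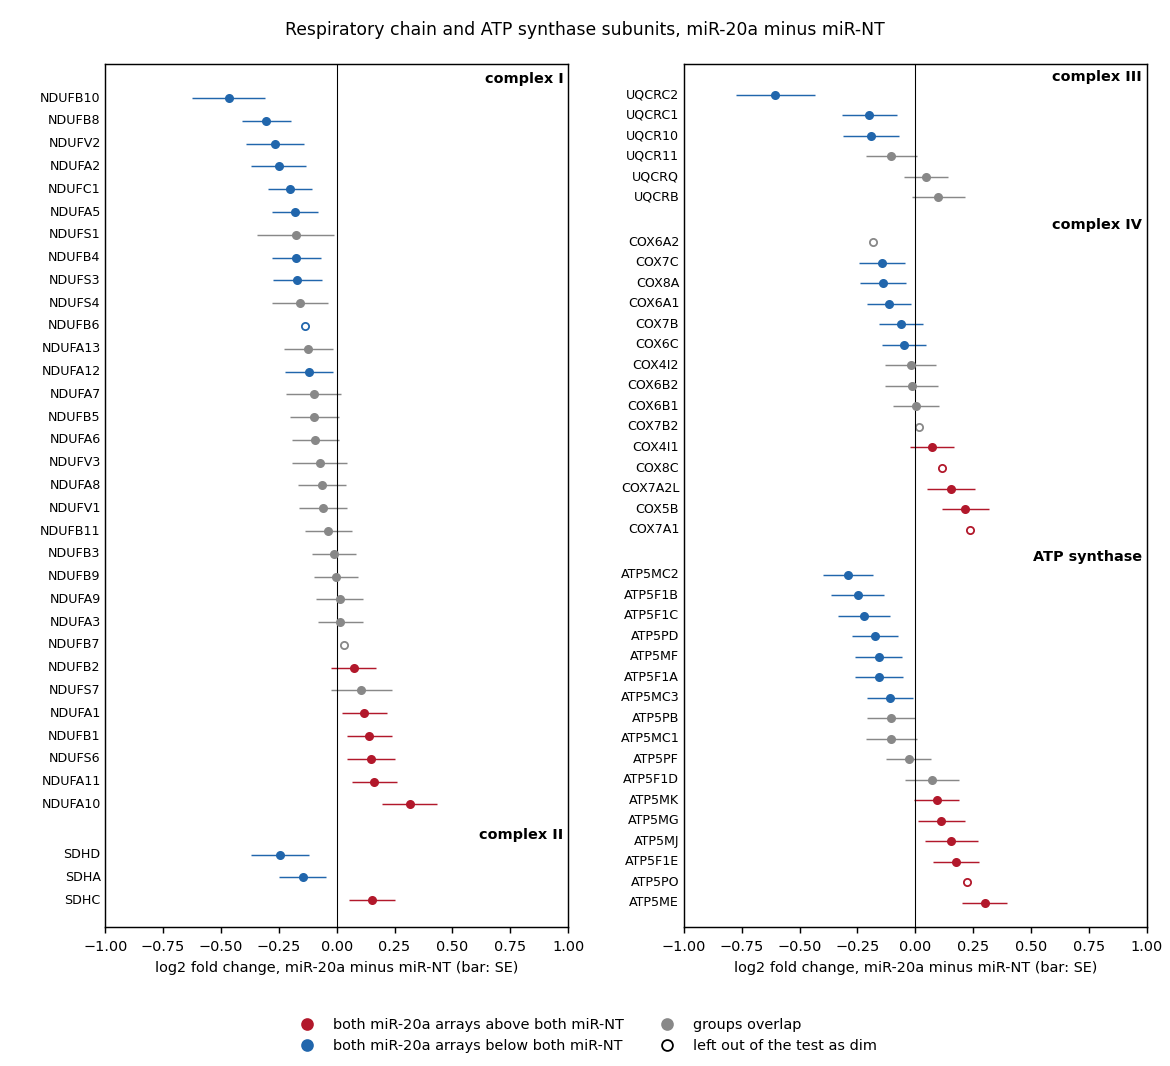
Log2 fold change (miR-20a minus miR-NT, horizontal axis) of each of the 73 members, by complex, with the standard error of the limma fit as a bar. Blue points are members with both miR-20a arrays below both miR-NT arrays (27 members), red points those with both above (18), grey points those whose groups overlap (28), and open points the 7 left out of the test as dim; UQCRC2 lies furthest to the left and NDUFA10 furthest to the right, and after quantile normalization 19 members lay apart as lower and 31 as higher.

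Replicates within a group also differed, and in the same direction in both groups. Replicate 2 lay below replicate 1 in 47 of 73 members with miR-20a and in 59 with miR-NT, and in 43 members in both groups (58.9%, where the share over all genes was 37.1%). All 8 NDUFS and NDUFV genes of complex I and all 3 members of complex II showed this in both groups, but 4 of 15 members of complex IV did. Medians of replicate 2 minus replicate 1 were −0.072 with miR-20a and −0.080 with miR-NT over the members, which is of the size of the difference between the groups. Across the 73 members, which share the same arrays, the log2 fold change and the replicate difference with miR-20a had a Pearson's r of 0.537, and over all 17716 genes it was 0.474. Both quantities contain the miR-20a arrays.

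**Figure D2:**
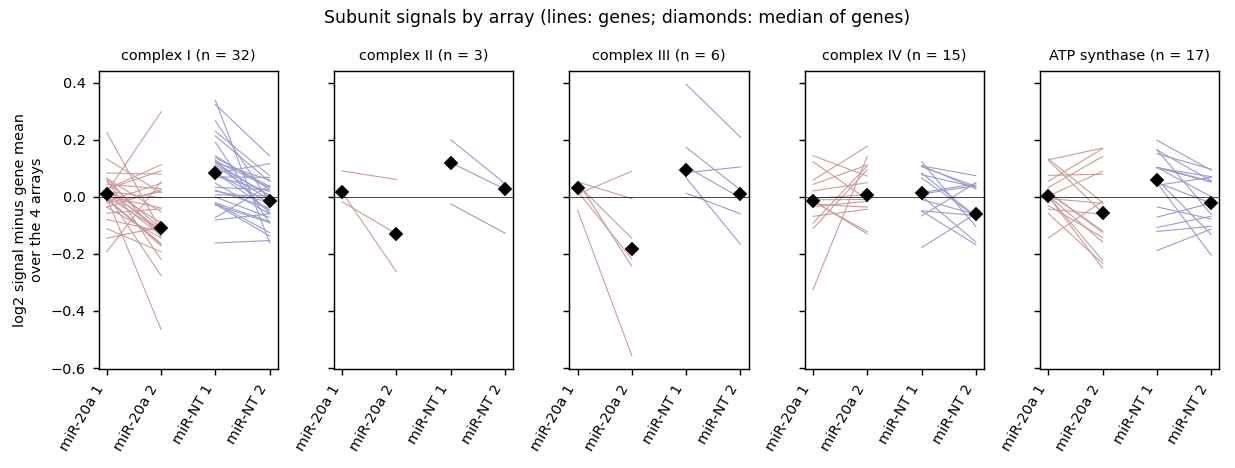
Log2 signal of each member minus its own mean over the 4 arrays (vertical axis) on the 2 miR-20a arrays and the 2 miR-NT arrays, in 1 panel per complex. Thin lines join the replicates of a gene and diamonds mark the median of the genes; the median of complex I stood at 0.011 and −0.11 with miR-20a and at 0.084 and −0.013 with miR-NT.

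Complex III, which passes electrons from ubiquinol to cytochrome c, held the member with the lowest fold change. UQCRC2, a core protein on the matrix side, measured 10.36 and 9.84 with miR-20a, against 10.80 and 10.61 with miR-NT. Both miR-20a arrays were lower than both miR-NT arrays, and replicate 2 of miR-20a was the lowest of the 4. The difference of −0.60 on the log2 scale (SE 0.17, limma adjusted p = 0.157) corresponds to 1.52-fold lower. Leaving out miR-20a replicate 2 gave −0.35, leaving out replicate 1 gave −0.86, and the fit on the ACTB 5' control gave 0.17. UQCRC1, the other core protein, measured 11.24 and 11.00 with miR-20a and 11.39 and 11.24 with miR-NT (log2 fold change −0.20, SE 0.12, limma adjusted p = 0.375). The small subunit UQCR10 measured 7.58 and 7.29 with miR-20a and 7.62 and 7.64 with miR-NT, at −0.19 (SE 0.12). In these 3 genes the groups did not overlap, the gap being small for UQCRC1 and UQCR10. Thus 3 of 6 members lay apart as lower and 0 as higher, where 27.2% and 26.7% of all genes did. After quantile normalization 1 lay apart as lower and 2 as higher, where 25.7% and 30.9% of all genes did. UQCR11 stood at −0.10, UQCRQ, which lies by cytochrome b, at 0.047, and UQCRB, which helps to form the ubiquinone site, at 0.10, all with overlapping groups. UQCRC2 thus had the lowest fold change among the brightest probe sets of the members, with NDUFB10 next at −0.47 (SE 0.16). It did not pass the test.

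Complex II links the citrate cycle to the chain, and its catalytic subunit SDHA, which binds the flavin, measured 10.50 and 10.39 with miR-20a, against 10.64 and 10.54 with miR-NT (log2 fold change −0.15, SE 0.10). SDHD, a membrane anchor, measured 10.78 and 10.50 with miR-20a, against 10.96 and 10.81 with miR-NT (−0.25, SE 0.12, limma adjusted p = 0.317). Both arrays with miR-20a were the lower ones in both genes, as they were in 27.2% of all genes. The other anchor, SDHC, had 2 probe sets that went opposite ways. The brighter set, used in the test, measured 9.68 and 9.65 with miR-20a, against 9.57 and 9.46 with miR-NT, a log2 fold change of 0.15 (SE 0.10) with the miR-20a arrays higher. The dimmer set measured 7.63 and 6.96 with miR-20a, against 8.37 and 8.34 with miR-NT. It was the lower in both miR-20a arrays, lowest in replicate 2, and its log2 fold change was −1.06 (SE 0.19), with limma adjusted p = 0.114 in a fit of all 20323 probe sets. The mean of both sets gave −0.45. Which transcripts of SDHC each set reads is not given in the sources used here, so the direction for SDHC is unsettled. In the fit on the ACTB 5' control SDHA and SDHD turned to 0.033 and 0.18.

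**Figure D3:**
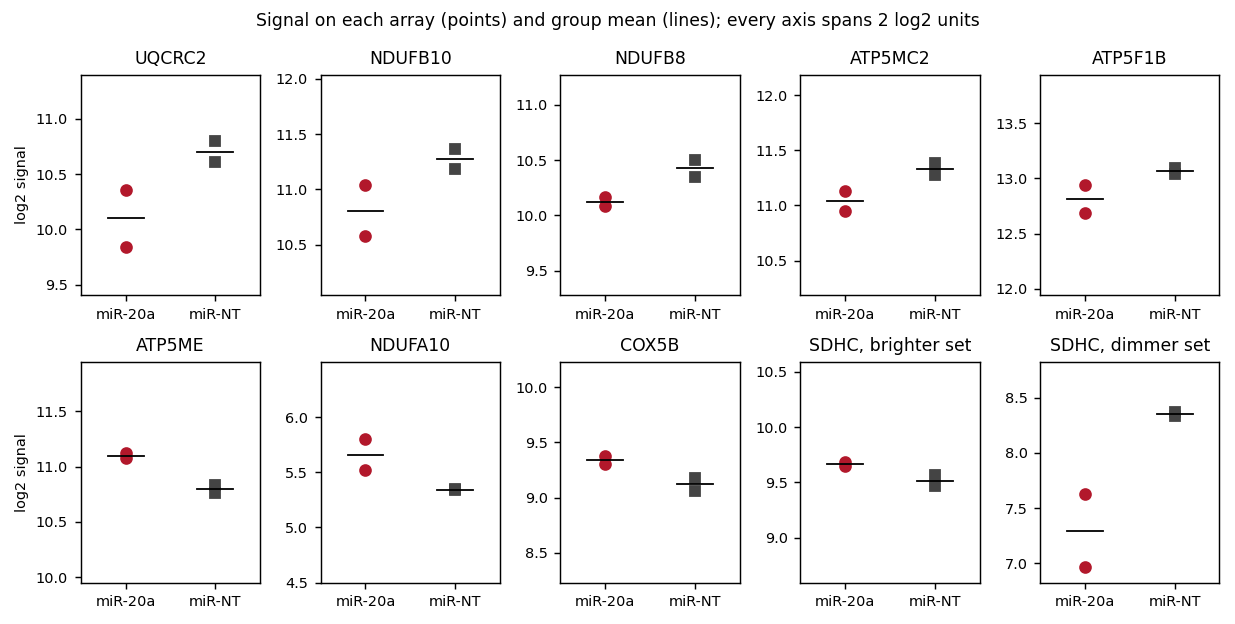
Log2 signal (vertical axis, spanning 2 log2 units in every panel) on each array for 8 members and both SDHC probe sets, miR-20a at the left (circles) and miR-NT at the right (squares), with lines at the group means. UQCRC2 and NDUFB10 are spread widely with miR-20a, ATP5ME narrowly in both groups, and the SDHC sets point in opposite directions, with log2 fold changes of 0.15 and −1.06.

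Complex I oxidises NADH in an arm that reaches into the matrix and pumps protons in an arm within the membrane. Among the core subunits of the matrix arm, NDUFV2, which holds an iron-sulphur cluster, measured 11.54 and 11.25 with miR-20a, against 11.74 and 11.58 with miR-NT (log2 fold change −0.27, SE 0.13, limma adjusted p = 0.294). NDUFS3, next to the ubiquinone site, measured 10.82 and 10.66 with miR-20a, against 10.96 and 10.85 with miR-NT (−0.17, SE 0.11). The groups lay apart in both genes, by less than the gap between replicates. NDUFV1, which binds NADH, was at −0.058 and turned to 0.080 after quantile normalization. NDUFS1, another iron-sulphur subunit, was at −0.18 (SE 0.17), with 8.15 and 7.98 in miR-20a cells and a wide pair of 8.49 and 7.99 in miR-NT cells. NDUFS7, which holds the last iron-sulphur cluster before ubiquinone, was at 0.11 (SE 0.13), with values of 10.19 and 9.85 with miR-20a and 9.95 and 9.88 with miR-NT, and these groups overlapped like those of NDUFV1 and NDUFS1. Of the 8 NDUFS and NDUFV genes 6 were below 0 as deposited and 4 after quantile normalization.

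Accessory subunits of complex I, which surround the core and are needed for its assembly and stability, spread to both sides. NDUFB10, in the far part of the membrane arm, measured 11.04 and 10.57 with miR-20a, against 11.36 and 11.18 with miR-NT, and miR-20a replicate 2 was the lowest of the 4. It was 1.38-fold lower, −0.47 on the log2 scale (SE 0.16, limma adjusted p = 0.203), and at 0.23 in the fit on the ACTB 5' control. NDUFB8, of the same arm, measured 10.16 and 10.08 with miR-20a, against 10.50 and 10.35 with miR-NT. Here the gap between the groups exceeded the spread of the miR-20a pair, with −0.30 (SE 0.10, limma adjusted p = 0.206), and the value stayed between −0.38 and −0.16 under every alternative run. NDUFC1, a short accessory subunit, measured 5.92 and 5.88 with miR-20a, against 6.08 and 6.11 with miR-NT (−0.20, SE 0.10), near the mean of 5.46 at which genes were left out as dim. NDUFA2, in the matrix arm, was also read by a dim probe set, with 5.78 and 5.82 in miR-20a cells, against 6.19 and 5.90 in miR-NT cells (−0.25, SE 0.12).

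On the upper side of complex I was NDUFA10, an accessory subunit of the membrane arm, which measured 5.52 and 5.80 with miR-20a, against 5.34 and 5.35 with miR-NT. Read by this dim probe set, NDUFA10 had the highest fold change of all members, 0.31 (SE 0.12, limma adjusted p = 0.228). It turned to −0.098 in the fit on the ACTB 5' control. Whether a dim probe set reflects a low transcript level or a poor reading was not tested, for NDUFA10 or for other dim members. NDUFA11, NDUFS6, NDUFB1, NDUFA1 and NDUFB2 also had both miR-20a arrays above both miR-NT arrays, with log2 fold changes of 0.16, 0.15, 0.14, 0.12 and 0.073 in that order, each under 2 standard errors. Over complex I, 6 of 32 members lay apart as higher (18.8%) and 10 as lower (31.2%), where 26.7% and 27.2% of all genes did. After quantile normalization 15 lay apart as higher and 9 as lower (46.9% and 28.1%), where 30.9% and 25.7% of all genes did. Fold changes nearest to 0 were those of NDUFB9 and NDUFB3, both membrane-arm subunits, at −0.0032 and −0.010. NDUFB9 measured 12.69 and 12.73 with miR-20a and 12.73 and 12.70 with miR-NT, and NDUFB3 11.02 and 11.08 with miR-20a and 11.06 and 11.06 with miR-NT. Over the whole complex 22 of 32 members were below 0 as deposited and 14 of 32 after quantile normalization. NDUFB6 and NDUFB7 were left out of the test as dim, at means of group values between 3.74 and 4.41.

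Complex IV, cytochrome c oxidase, was evenly divided in the deposited values, with 8 of 15 members below 0 and 7 above, and 6 below and 9 above after quantile normalization. COX5B, a zinc-binding subunit on the matrix side, measured 9.37 and 9.30 with miR-20a, against 9.18 and 9.06 with miR-NT. Both miR-20a arrays were higher, and the log2 fold change was 0.22 (SE 0.10, limma adjusted p = 0.288), between 0.16 and 0.34 under every alternative run. COX7A2L, which acts in joining complexes III and IV, was at 0.16 (SE 0.10). COX4I1, the common form of a regulatory subunit, measured 12.57 and 12.60 with miR-20a, against 12.54 and 12.49 with miR-NT (0.071, SE 0.095), and its second probe set was at 0.21 (SE 0.12). Both sets of COX4I1 were on the upper side, and neither passed the test. The second set was dim, at 5.99 and 6.02 with miR-20a and 5.95 and 5.63 with miR-NT, where replicate 2 was the lowest of the 4. Lower were COX7C, COX8A and COX6A1, small membrane subunits, at −0.14, −0.14 and −0.11, and the groups did not overlap, yet COX6A1 was at 0.004 after quantile normalization. Over complex IV, 5 of 15 members lay apart as lower and 5 as higher (33.3% each), where 27.2% and 26.7% of all genes did. After quantile normalization 1 lay apart as lower and 5 as higher, where 25.7% and 30.9% of all genes did. COX6B1, which faces the intermembrane space, was at 0.003, with 11.65 and 11.67 in miR-20a cells and 11.73 and 11.59 in miR-NT cells.

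Complex IV also has isoforms that are known from particular tissues. COX6A2 and COX7A1, found in heart and skeletal muscle, and COX7B2 and COX8C, known from testis, were left out of the test as dim. COX7A1 measured 5.23 and 5.34 with miR-20a, against 4.99 and 5.11 with miR-NT, and COX6A2 5.01 and 5.48 with miR-20a and 5.44 and 5.41 with miR-NT. COX4I2, the form that replaces COX4I1 in lung and under low oxygen, was dim but tested, at 6.22 and 6.22 with miR-20a and 6.35 and 6.13 with miR-NT (log2 fold change −0.019, SE 0.11). COX6B2, the testis form of COX6B1, was at −0.015 (SE 0.11). Apart from COX7A1 and COX8C, which lay higher on both miR-20a arrays, these isoforms had overlapping groups.

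ATP synthase had 10 of 17 members below 0 as deposited and 7 of 17 after quantile normalization. In its catalytic head, ATP5F1B, the beta subunit that makes ATP, measured 12.94 and 12.69 with miR-20a, against 13.09 and 13.04 with miR-NT (log2 fold change −0.25, SE 0.12, limma adjusted p = 0.288). The alpha subunit ATP5F1A measured 13.13 and 12.97 with miR-20a, against 13.23 and 13.18 with miR-NT (−0.15, SE 0.10), and the gamma subunit ATP5F1C, the shaft, was at −0.22 (SE 0.11). In each of these 3 genes both miR-20a arrays were the lower ones, with replicate 2 the lowest. Of the 5 ATP5F1 genes 3 lay apart as lower under both the deposited scaling and quantile normalization, where 27.2% and 25.7% of all genes did. The delta subunit ATP5F1D was at 0.071 (SE 0.12), and the epsilon subunit ATP5F1E measured 12.97 and 13.08 with miR-20a, against 12.83 and 12.87 with miR-NT (0.18, SE 0.099), with the miR-20a arrays higher. In the fit on the ACTB 5' control, ATP5F1A, ATP5F1B and ATP5F1C stood at 0.089, 0.13 and 0.12.

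The c ring is built from 1 mature protein that 3 genes encode. ATP5MC2 measured 11.13 and 10.95 with miR-20a, against 11.38 and 11.28 with miR-NT, both miR-20a arrays being lower, with a log2 fold change of −0.29 (SE 0.11, limma adjusted p = 0.221). ATP5MC1 and ATP5MC3 were at −0.10 and −0.11, within about 1 standard error, and ATP5MC1 was at 0.008 after quantile normalization. Among the other membrane subunits, which bend the membrane and join the enzyme into dimers, 4 of 5 lay higher on both miR-20a arrays under each scaling run, where the share over all genes was 26.7% as deposited, 30.9% after quantile normalization and 27.9% after median centring. ATP5ME, the e subunit, measured 11.08 and 11.12 with miR-20a, against 10.76 and 10.84 with miR-NT. Its replicates were close in both groups, and its log2 fold change of 0.30 (SE 0.097, limma adjusted p = 0.187), or 1.23-fold higher, stayed between 0.23 and 0.44 under every alternative run. ATP5MJ, ATP5MG and ATP5MK were at 0.16, 0.11 and 0.092, and ATP5MF, the f subunit, was at −0.16, read by a probe set at 6.35 and 6.48 with miR-20a and 6.60 and 6.55 with miR-NT. In the peripheral stalk, which holds the head still, ATP5PD was at −0.17, ATP5PB at −0.10 and ATP5PF at −0.029. ATP5PO, the subunit at the top of the stalk, was left out of the test as dim. It measured 5.44 and 5.56 with miR-20a, against 5.27 and 5.29 with miR-NT, a log2 fold change of 0.22. ATP5ME was read by a probe set of the kind marked _x_at, which may read related transcripts, as were SDHA, ATP5F1C and ATP5F1D.

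Genes that work with the chain, taken from lists of assembly factors, carriers and regulators, did not pass the test either. Of 52 tested assembly factors 0 passed, with 0 higher and 3 lower at an unadjusted limma p under 0.05, where 5.82% of all tested genes were higher and 13.2% lower at that level. The median of 54 measured was −0.048. The 3 were SDHAF3, which helps to mature complex II and measured 7.85 and 7.77 with miR-20a, against 8.17 and 8.06 with miR-NT, UQCC1, an assembly factor of complex III, and SCO1, a copper chaperone of complex IV. Of 20 tested carriers and related subunits 0 passed, with 0 higher and 4 lower at that level. UCP2, an uncoupling protein of the inner membrane, measured 7.98 and 7.92 with miR-20a, against 8.50 and 8.45 with miR-NT, with replicates close in both groups (limma adjusted p = 0.0949). ATP5IF1, the inhibitor of ATP synthase, measured 11.15 and 11.16 with miR-20a, against 11.07 and 11.01 with miR-NT, the miR-20a arrays being higher, with a log2 fold change of 0.11 (SE 0.096, limma adjusted p = 0.503). Of 18 tested regulators of mitochondrial gene expression 0 passed, with 0 higher and 4 lower at that level. POLG, the polymerase of mitochondrial DNA, measured 6.00 and 5.62 with miR-20a, against 6.59 and 6.67 with miR-NT (1.76-fold lower, limma adjusted p = 0.0876).

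Set beside 73 mitochondrial ribosomal proteins, whose genes are likewise nuclear, the median of the members was similar: −0.064 over respiratory chain and ATP synthase members and −0.080 over the ribosomal ones. At an unadjusted limma p under 0.05, where 5.82% of all tested genes were higher and 13.2% lower, 2 members were higher and 4 lower of 66 tested, against 6 higher and 8 lower of 66 mitochondrial ribosomal proteins and 2 higher and 1 lower of 46 cytosolic ribosomal proteins, whose median was 0.025. These differences between gene groups were not tested.

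**Figure D4:**
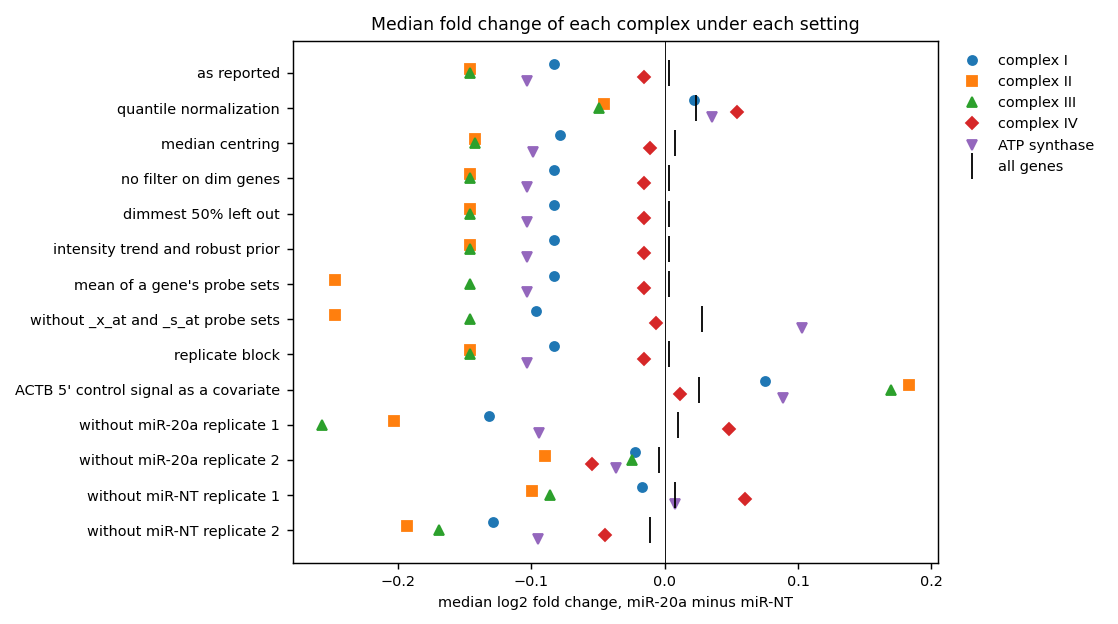
Median log2 fold change (miR-20a minus miR-NT, horizontal axis) of the members of each complex and of all genes, as reported and under each alternative (rows). Complexes II and III lay lowest as reported, at −0.15 each, and highest in the fit on the ACTB 5' control, at 0.18 and 0.17, while complex I, complex IV and ATP synthase were above 0 after quantile normalization.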

How the data were processed

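Total RNA of Hs683 cells was measured on 4 Affymetrix arrays, 2 per group. The authors deposited 1 value for each probe set on each array, taken as log2 because of its range. Per the submitters' processing notes the R package affy was used. How the 20323 probe sets were summarised, normalized and chosen is not stated there. Arrays give no read depth, and their number limits the precision.

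Groups came from the source names and replicate numbers from the titles. Gene names came from GEO's platform annotation and were brought up to date by RefSeq gene identifier (18034 matched of 18060 probe sets with 1 gene). Another 886 had several genes, and 1377 were controls or had none. The 5315 dimmest genes (lowest 30% by mean of 4 arrays) were left out of the test, which left 12401.

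Genes were fitted with limma 3.58.1 in R 4.3.3 (lmFit, eBayes, two-sided, no covariate, Benjamini-Hochberg, threshold 0.05), with 2 residual and 5.53 prior degrees of freedom. An exact permutation test of 2 against 2 cannot go below 0.333 and was not run. The fit was tested on simulated data built from the mean signals of the 12401 genes of the comparison of miR-20a with miR-NT. Of genes changed by 0.5 on the log2 scale 17.8% were recovered, 95.3% at 1 and 100% at 2, with 5.29% false calls. The simulated noise was independent between arrays, with its spread drawn from limma's own prior. Deviations that real arrays share were absent from it, so these shares are not recovery rates for the present arrays.

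Members and lists were chosen with earlier results of these data known. Named members were, per complex, the 5 with the smallest and 2 with the largest p, core subunits and isoform partners; others, and the promoters printed, were named after their values were seen. Alternatives were other scalings, filters, priors, probe-set choices, the replicate number as a block, the ACTB 5' control as a covariate and each array left out. Every probe set on its own was added after seeing the data.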

Additional observations from a re-analysis of the deposited data

How the results depend on the processing

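No member passed under any alternative except without miR-20a replicate 1, where 6 did, against 1869 of all genes (15.1%). Those were UQCRC2, NDUFB10, NDUFV2, SDHD and ATP5MC2 on the lower side and NDUFA10 on the higher. With an array left out, members passing ranged from 0 to 1 as higher and from 0 to 5 as lower, and all genes from 0 to 302 and from 0 to 1567. Such fits take the spread of the lone array from the other group.

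All genes passing as lower numbered 5 after quantile normalization, 45 after median centring, 4 with the dimmest 50% left out, 23 with an intensity trend and robust prior, 3 without _x_at and _s_at probe sets and 5 in the fit on the ACTB 5' control. As higher, 2 passed after median centring and 1 each with the trend and the covariate. With the replicate block 0 genes passed as lower, and no member's call changed. Same-numbered arrays deviated together with a correlation of 0.240 over probe sets, but with 2 pairs the numbers cannot be taken to pair the samples.

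With that control as covariate the median log2 fold changes were 0.071 (all members), 0.075 (complex I), 0.18 (complex II), 0.17 (complex III), 0.011 (complex IV) and 0.089 (ATP synthase). After quantile normalization they were 0.020 (all members), 0.022 (complex I), −0.046 (complex II), 0.054 (complex IV) and 0.035 (ATP synthase). For complex II the median was −0.25 with probe sets averaged per gene and −0.25 without _x_at and _s_at sets, where SDHD alone is left, and that of ATP synthase was 0.10 without those sets. With an array left out, medians ranged from −0.12 to −0.024 (all members), −0.13 to −0.017 (complex I), −0.20 to −0.090 (complex II), −0.26 to −0.025 (complex III), −0.055 to 0.060 (complex IV) and −0.095 to 0.0078 (ATP synthase). The cause of these shifts was not tested.

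Over all 73 members, 46 were below 0 as deposited and 21 with the ACTB covariate. Signs of single genes are listed only for members picked by p, as core subunits or as isoform partners. Of those, the following changed sign with that covariate: NDUFB10 (0.23), NDUFV2 (0.17), NDUFS1 (0.14), NDUFS3 (0.079), NDUFV1 (0.18), NDUFA10 (−0.098), SDHD (0.18), SDHA (0.033), UQCRC2 (0.17), UQCRC1 (0.17), UQCR10 (0.24), UQCR11 (0.19), COX7C (0.038), COX8A (0.029), COX4I2 (0.011), ATP5F1B (0.13), ATP5F1C (0.12), ATP5F1A (0.089), ATP5MC3 (0.092) and ATP5PF (0.0070). After quantile normalization NDUFV1 (0.080), NDUFB3 (0.12), NDUFB9 (0.12), COX6A1 (0.0039), ATP5MC1 (0.0078) and ATP5PF (0.11) did so, after median centring NDUFB9 (0.00085), and with the mean of its probe sets SDHC (−0.45). With an array left out the log2 fold change ranged from −0.43 to 0.073 for NDUFS1, −0.14 to 0.024 for NDUFV1, −0.041 to 0.020 for NDUFB3, −0.024 to 0.017 for NDUFB9, −0.065 to 0.28 for NDUFS7, −0.017 to 0.22 for UQCRB, −0.13 to 0.094 for COX4I2, −0.12 to 0.088 for COX6B2, −0.065 to 0.071 for COX6B1, −0.22 to 0.010 for ATP5MC1, −0.065 to 0.0078 for ATP5PF and −0.025 to 0.17 for ATP5F1D. For COX6A2, left out of the test as dim, it ranged from −0.42 to 0.051.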
